A study of Mus musculus with 3 samples.

Results

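B2m and Tfrc, genes of 2 proteins of the cell surface, were each read by 1 reference probe on a mouse lncRNA array. They are 2 of the 15 genes that a probe of the array names by a RefSeq accession, among 60915 probes in all. The B2m probe carries NM_009735.3. Of a pair of candidate probes, the one carrying NM_011638.3 was taken for Tfrc, because that accession is a Tfrc transcript in RefSeq. Measured values played no part in the choice between these candidate probes.

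B2m encodes beta-2 microglobulin, the light chain of MHC class I. It holds the heavy chain in its folded form, and without it class I molecules that show peptides to CD8 T cells hardly reach the surface. Interferons raise its expression, and nearly all nucleated cells carry it. Tfrc encodes transferrin receptor 1, also called CD71, which binds iron-loaded transferrin and takes it into endosomes. Its mRNA is stabilised by iron regulatory proteins when iron is scarce. Dividing precursors, in the neutrophil lineage too, carry much of it, and mature neutrophils carry little.

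The cells were PMN-MDSCs (polymorphonuclear myeloid-derived suppressor cells), which resemble neutrophils and are named for their action against T cells. The 3 groups, with 1 array each, were PMN-MDSCs from the tumor of tumor-bearing mice, from the spleen of tumor-bearing mice and from the spleen of wild-type mice. All mice were male C57BL/6 of 6 to 8 weeks, and all cells were enriched with a kit and then sorted on CD11b and Ly6G. The sources used here do not give the tumor type or the number of mice behind each array. None of 32 marker genes of neutrophil-lineage, monocyte-macrophage, T, B, erythroid and tumor or stromal cells has a named probe, so the label of the cells was not checked against markers, and the part of other cells in the values below was not tested.

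With 1 array per group there is no replicate and no test. The error given is the SD between repeated spots of a probe on 1 array or, for a difference, the SDs of both arrays combined. It describes single spots and is not the error of their mean. It is technical and holds nothing of the spread between mice. A level is the log2 processed signal less the array's own 75th percentile, which was 524 signal units on the tumor array, 509 on the tumor-bearing spleen array and 698 on the wild-type spleen array. No spot was saturated, and 73.7% to 76.8% of probes were well above background.

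Each gene had 20 spots per array, scattered over the slide. For B2m, 19 spots on the tumor array, 20 on the tumor-bearing spleen array and 18 on the wild-type array were free of outlier flags, and for Tfrc 19, 20 and 20 were, in the same order. All of these were well above background. The brightest B2m spot used reached 40.2% of the scanner's saturation value, and the brightest Tfrc spot 9.42%. The local background was 22.5 to 25.5 units at the median, so its subtraction had little to act on at these signals.

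The unscaled signals of both genes were highest with wild-type spleen and lowest with tumor. B2m read 213285 to 248184 units on the tumor array, with a median of 230992. On the tumor-bearing spleen array it read 268242 to 291353, with a median of 280751. On the wild-type array it read 275664 to 311630, with a median of 294160. The B2m spots of the tumor array thus all lay below those of both spleen arrays, which overlapped each other.

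Tfrc read 33100 to 36796 units on the tumor array, with a median of 35435. On the tumor-bearing spleen array it read 40469 to 47187, with a median of 44563. On the wild-type array it read 63674 to 71308, with a median of 67278. The Tfrc spots of the 3 arrays did not overlap before scaling.

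Scaling changed the order for B2m. Its level was 9.10 ± 0.04 in tumor-bearing spleen, 8.78 ± 0.06 in tumor and 8.72 ± 0.05 in wild-type spleen, on the log2 scale (SD between spots). The gap between wild-type spleen and tumor, 0.06, was smaller than its spot SD of 0.08, and 16 of the 18 wild-type spots lay above the lowest tumor spot. The level in tumor-bearing spleen lay above both, with no overlap of spots. The wild-type array was the brightest by its 75th percentile, so scaling moved it down by 0.41 against tumor and by 0.46 against tumor-bearing spleen.

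For Tfrc the order stayed the same after scaling. The level was 6.59 ± 0.05 in wild-type spleen, 6.45 ± 0.06 in tumor-bearing spleen and 6.08 ± 0.04 in tumor. The tumor spots lay below all spots of both spleens. The spleens differed by 0.14 with a spot SD of 0.08, and 4 of the 20 spots of tumor-bearing spleen lay above the lowest spot of wild-type spleen.

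**Figure D1:**
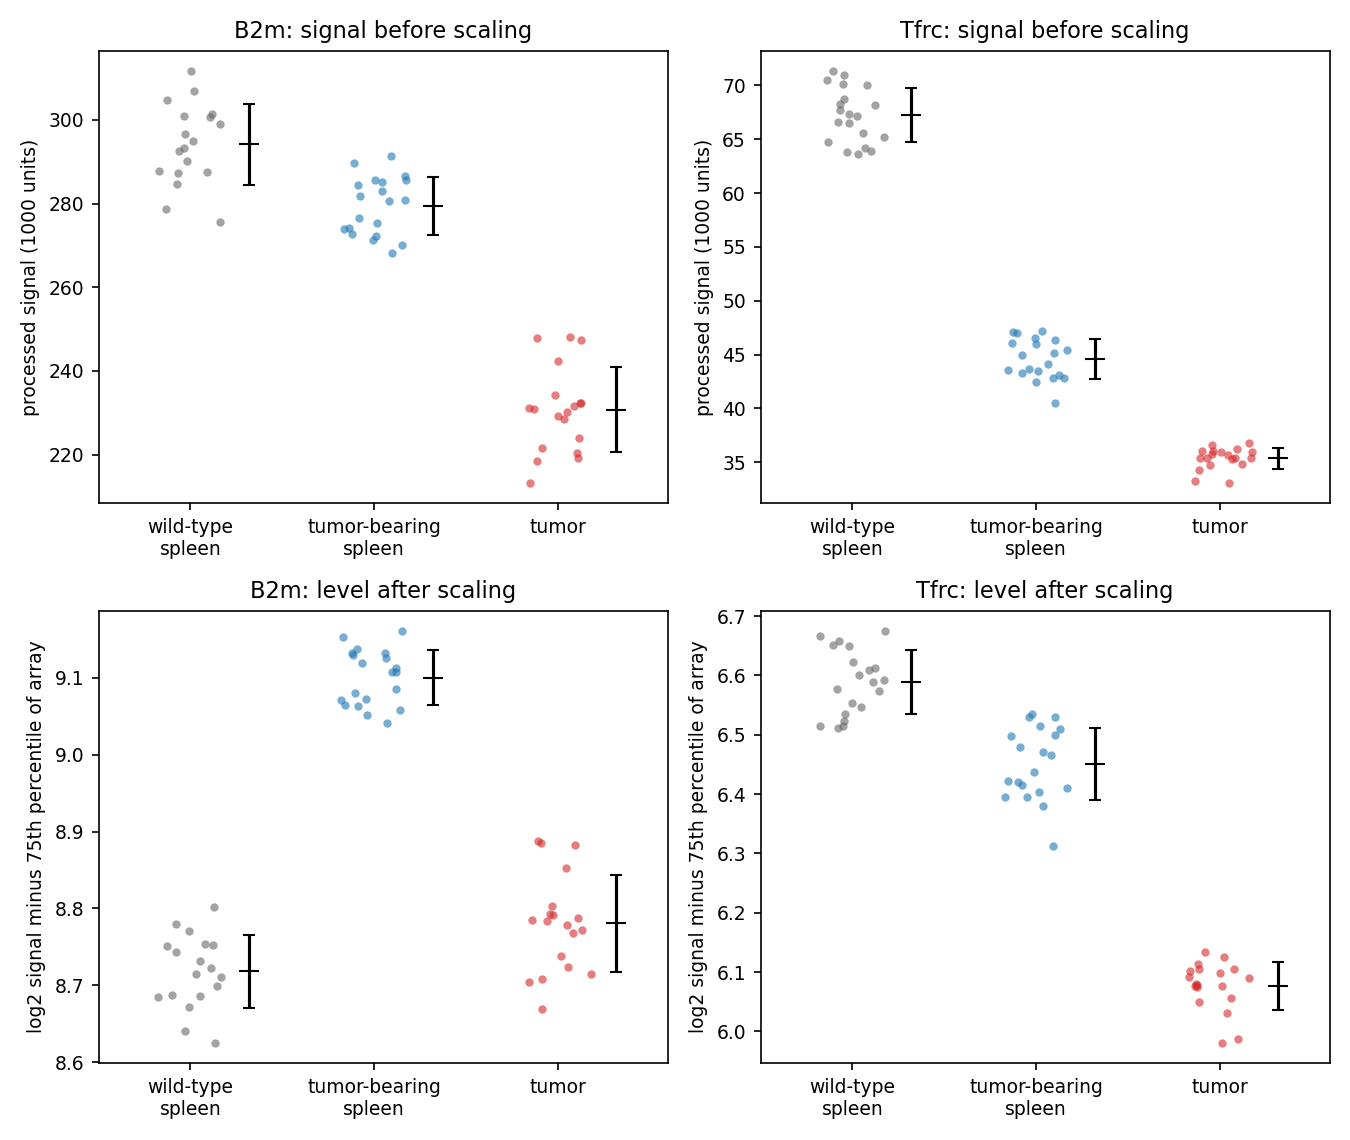
Signals of the unflagged spots of B2m (left) and Tfrc (right) by array, in 1000 processed signal units before scaling (top) and as log2 signal minus the 75th percentile of the array (bottom); the axes do not start at 0. Each point is a spot, and the bar beside it is the mean with the SD between spots. B2m is highest in tumor-bearing spleen only after scaling, while Tfrc is lowest in tumor in both views.

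The first comparison, which the series design names, set PMN-MDSCs of the tumor against those of wild-type spleen. B2m differed by 0.06 ± 0.08, which is less than its spot SD. Tfrc read 1.43-fold lower in tumor, at -0.51 ± 0.07. In a bulk sample fewer cells that express a gene and less RNA per cell cannot be told apart. At the 19 slide positions usable on both arrays, Tfrc was lower in tumor at 19, with differences from -0.58 to -0.44. B2m was higher in tumor at 15 of 17 positions. The sign for B2m changed to -0.08 when arrays were scaled by the median of detected probes and to -0.35 with no scaling. The Tfrc difference was -0.16 under quantile normalization, which gives the arrays the same distribution of values, and -0.93 with no scaling. It turned to 0.87 with the median level of the other 13 reference genes as the scale, and B2m was then at 1.44.

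Neither gene was past 2-fold between tumor and wild-type spleen, beside 37.8% of 43421 probes measured on both arrays, and neither was past 1.5-fold, beside 57.4%. This holds for the reported scaling: Tfrc was past 1.5-fold under 3 of the 12 alternatives, and B2m past 2-fold under 1. The median difference of those probes was 0.02. For B2m only 5.05% of the probes had a smaller difference in size, and for Tfrc 38.2% had. Among the 15 reference genes B2m had the smallest difference in size and Tfrc stood 8th. These ranks are for the reported scaling: B2m moved to -0.35 with no scaling and to 0.37 under quantile normalization.

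The second comparison set the spleen of tumor-bearing mice against the spleen of wild-type mice. In tumor-bearing mice B2m read 1.30-fold higher, at 0.38 ± 0.06. It was higher at 18 of 18 shared positions, by 0.31 to 0.50. Tfrc differed by -0.14 ± 0.08 and was lower at 20 of 20 positions, from -0.21 to -0.08. Spots at the same position thus gave 1 direction, although the ranges of the Tfrc spots overlapped. Position does not cover the scaling: Tfrc turned to 0.21 under quantile normalization and in the authors' value table, and B2m turned to -0.07 with no scaling.

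Neither gene was past 2-fold between the spleens, beside 49.3% of 42323 probes, nor past 1.5-fold, beside 68.4%. Scaling by the other reference genes put B2m past 2-fold, at 1.93 by their median level and 1.11 by their median difference. Tfrc was past 2-fold by the former, at 1.41, and past 1.5-fold by the latter, at 0.60, and with no scaling, at -0.59. The median of all probes was 0.29, so relative to it B2m stood at 0.09 and Tfrc at -0.43. A smaller difference in size was seen in 20.7% of probes for B2m and in 7.51% for Tfrc. By the reported scaling Tfrc had the smallest difference in size of the 15 reference genes here. With no scaling the B2m difference, at -0.07, was smaller in size than that of Tfrc, at -0.59.

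The last comparison set tumor against spleen within tumor-bearing mice. B2m read 1.25-fold lower in tumor, at -0.32 ± 0.07, and Tfrc 1.30-fold lower, at -0.37 ± 0.07. Each was lower at 19 of 19 shared positions, B2m from -0.42 to -0.16 and Tfrc from -0.46 to -0.28. Both kept this direction under each of the 12 alternatives, from -0.10 to -0.61 for B2m and from -0.33 to -0.66 for Tfrc. The value nearest 0 for B2m, -0.10, came from quantile normalization and the authors' value table.

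Neither gene was past 2-fold between tumor and spleen of tumor-bearing mice, beside 28.9% of 42843 probes, nor past 1.5-fold, beside 52.6%. By the median difference of the other reference genes both were past 1.5-fold, B2m at -0.61 and Tfrc at -0.66. The median difference of all probes was -0.04. A smaller difference in size was seen in 27.2% of probes for B2m and in 31.7% for Tfrc.

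**Figure D2:**
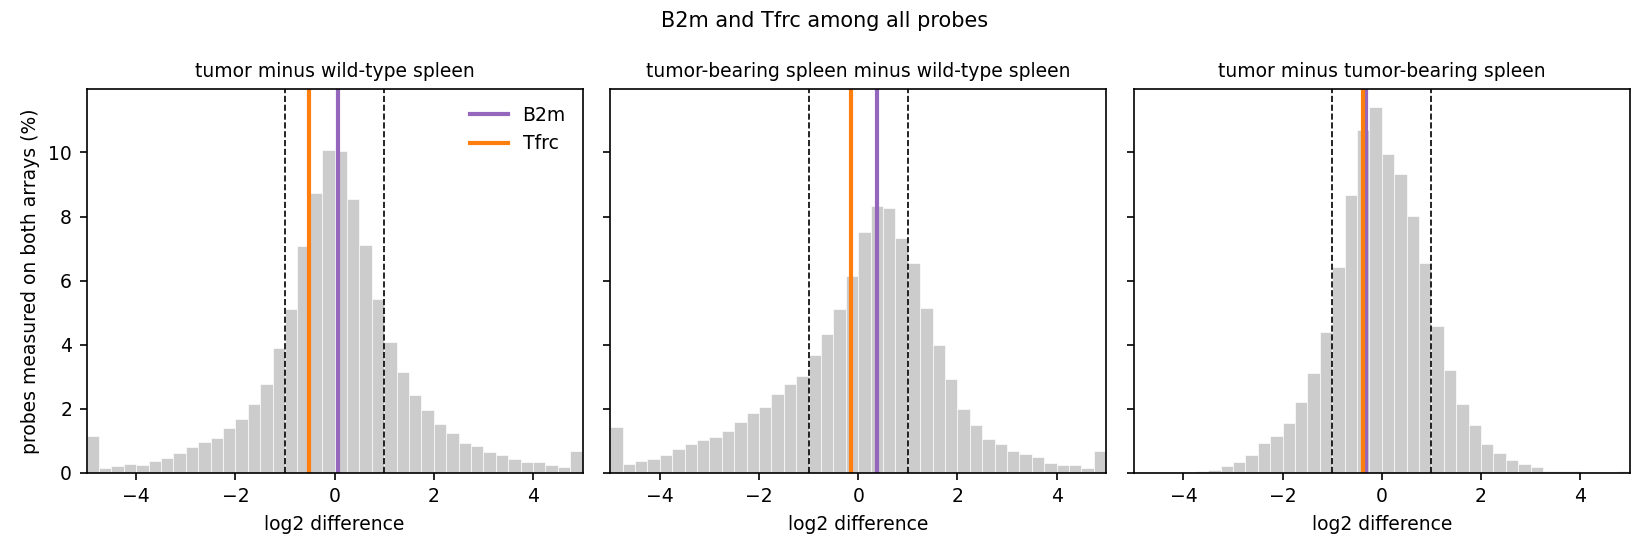
Share of probes, in percent of those well above background on both arrays, by log2 difference in bins of 0.25, for the 3 comparisons; the outermost bars also hold the probes beyond the axis. The coloured lines mark B2m and Tfrc and the dashed lines mark 2-fold. After scaling by the 75th percentile both genes lie between the dashed lines in each comparison, while 37.8%, 49.3% and 28.9% of probes lie past them, in panel order.

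The B2m difference less the Tfrc difference of the same arrays does not depend on any constant factor between arrays. Between tumor and wild-type spleen the B2m difference exceeded the Tfrc difference by 0.57 ± 0.10 on the log2 scale, or 1.49-fold. Between tumor-bearing and wild-type spleen it did so by 0.52 ± 0.10, or 1.43-fold. These figures share the wild-type array. Between tumor and tumor-bearing spleen the gap was 0.06 ± 0.10, within the spot SD.

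Of the 12 alternatives, 4 subtract a constant from each array and cannot move the gap. Under the other 8 it had the same sign in each of these comparisons. Against wild-type spleen it ran from 0.53 to 0.58 in tumor and from 0.26 to 0.53 in tumor-bearing spleen. Its lowest value in tumor-bearing spleen, 0.26, came from quantile normalization, which shifts signals by amounts that vary with their rank. The same setting put the gap between tumor and tumor-bearing spleen at 0.27. Gaps of this size were common: of the 105 pairs of reference genes, 77 differed by more between tumor and wild-type spleen and 93 by more between the spleens.

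**Figure D3:**
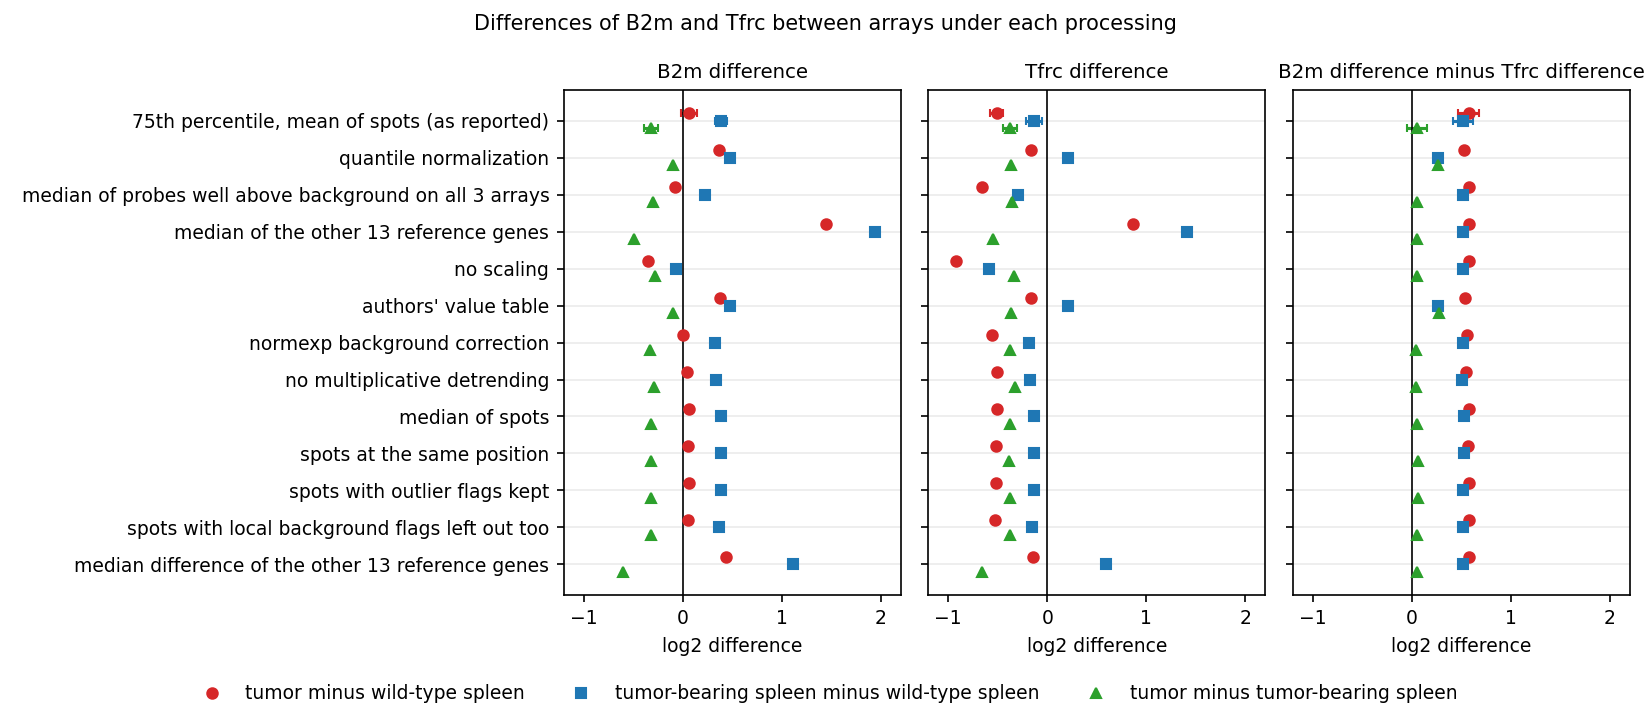
Log2 differences of B2m (left) and Tfrc (middle), and the B2m difference minus the Tfrc difference (right), for the 3 comparisons under the reported processing (top, with the SD between spots) and 12 alternatives. The left and middle values against wild-type spleen move with the scaling and cross 0, while on the right the values against wild-type spleen stay between 0.26 and 0.58.

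Over the 3 arrays the level of B2m spanned 0.38 and that of Tfrc 0.51 on the log2 scale. The median span of the 41251 probes well above background on all 3 arrays was 1.28, and 7.63% of them spanned less than B2m and 13.2% less than Tfrc. Among the 15 reference genes B2m had the smallest span and Tfrc the 3rd smallest. Under quantile normalization B2m was 4th, with a span of 0.47, and with no scaling Tfrc was 6th, with a span of 0.93. With the median level of the other 13 reference genes as the scale, the spleens alone differed by 1.93 for B2m and 1.41 for Tfrc. Both are more than 1.28, the median span under the reported scaling. By the median difference of those genes the spleens differed by 1.11 and 0.60. Ranks under these 2 scalings were not computed.

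The reference gene whose profile over the 3 arrays was nearest to that of B2m was Actb (NM_007393.3), the cytoplasmic beta-actin gene, at a Euclidean distance of 0.21 between log2 levels centred on each gene's mean. Gapdh, a glycolytic enzyme gene, came next at 0.27. Actb, like B2m, was highest in tumor-bearing spleen by the reported scaling, at 0.67 ± 0.05 against wild-type spleen. Actb was lowest in wild-type spleen, with tumor at 0.28 ± 0.07 against it. For B2m, wild-type spleen and tumor differed by only 0.06 with a spot SD of 0.08, and which was lowest depended on the scaling. Unscaled, B2m was lowest in tumor, at -0.35 against wild-type spleen. Tfrc was nearest to Tbp (NM_013684.3), the TATA-binding protein gene, at 0.15, and then to Gapdh at 0.36. By the reported scaling Tbp, like Tfrc, was highest in wild-type spleen and lowest in tumor, at -0.41 ± 0.08 against wild-type spleen. In the authors' value table and under quantile normalization Tfrc was highest in tumor-bearing spleen, and still lowest in tumor. Under quantile normalization Actb was still nearest to B2m, but Gapdh, at 0.04, was nearer to Tfrc than Tbp. With 3 arrays and 14 other genes these distances only describe.

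**Figure D4:**
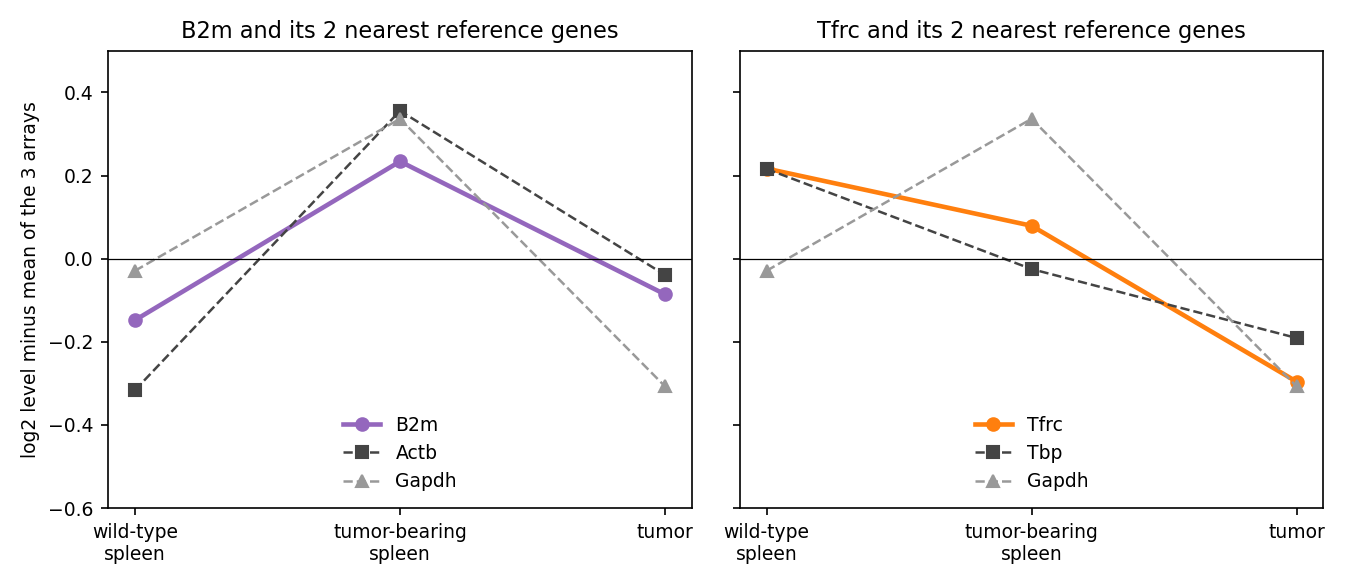
Log2 level minus the gene's mean over the 3 arrays, for B2m (left) and Tfrc (right), each with the 2 reference genes of nearest profile. By the reported scaling B2m and Actb peak in tumor-bearing spleen, and Tfrc and Tbp step down from wild-type spleen to tumor. The orders of B2m and Tfrc change under other scalings.

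Of the 17 genes in a list of MHC class I antigen presentation, B2m alone has a named probe, and of 19 genes of iron uptake and handling Tfrc alone has. Class I heavy chains, peptide transporters, ferritins and the iron exporter were thus not analysed here. RefSeq lists 1 transcript for B2m and 2 for Tfrc, and which of them the Tfrc probe can read beyond the named accession was not analysed here.

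Control probes at the transcript ends bear on RNA quality. For the control probes at the ends of Pgk1, the 5′ difference from wild-type spleen less the 3′ difference came to -1.13 ± 0.09 on the tumor array and -1.37 ± 0.12 on the tumor-bearing spleen array. For Gapdh it was -0.05 ± 0.10 and -0.16 ± 0.10. Between tumor and tumor-bearing spleen the 5′ difference less the 3′ difference was 0.24 ± 0.12 for Pgk1 and 0.11 ± 0.07 for Gapdh. The sources used here do not say where the B2m and Tfrc probes lie along their transcripts, and the part of RNA quality in their differences was not tested.

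The spots also show how tightly each gene was read. The coefficient of variation of the spots was 2.49% to 4.41% for B2m and 2.80% to 4.18% for Tfrc, below the 10.0% error that the scanner software gave its own signals. A multiplicative detrending had been applied to the tumor and wild-type arrays but not to the tumor-bearing spleen array. For Tfrc on the wild-type array the SD between spots was 0.11 before this step and 0.05 after it, but for B2m on the tumor array it was 0.04 before and 0.06 after. Without the step, the differences from wild-type spleen were 0.04 and 0.34 for B2m and -0.50 and -0.17 for Tfrc, in tumor and tumor-bearing spleen, so it moved each by less than the spot SD.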

How the data were processed

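RNA of PMN-MDSCs was hybridised in 1 colour (Cy3), 1 array per group. Per the file headers, the deposited intensity values come from Agilent Feature Extraction 11.0.1.1, a tool that the submitters' processing notes name too. The software subtracted background on each array and applied a multiplicative detrending to the tumor and wild-type arrays only, with no scaling between arrays. The authors' deposited value table holds log2 values of the same arrays (median 6.40 and maximum 18.9 in each column, r of 0.999 with the log2 processed signals across probes). The sources used here do not give its scaling, but its values lay close to those of quantile normalization. For B2m it gave 0.374 between tumor and wild-type spleen, beside 0.368 under quantile normalization. Between the spleens it gave 0.472, beside 0.471. These 2 alternatives are thus nearly the same setting. The value table was used as an alternative only.

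Control probes, 15 negative probes and spots flagged as non-uniform or population outliers were left out. Log2 signals of repeated spots were averaged, and the array's 75th percentile was subtracted. Comparisons kept probes for which the majority of spots were marked well above background by the software on each of the 2 arrays. The 15 accessions were matched, without versions, to RefSeq symbols of assembly GRCm38.p6, and no coordinates are given since the grid build is mm9. B2m and Tfrc are always named, as are, for each, the 2 reference genes of smallest profile distance. The members and lists were chosen with earlier results of these data known. Alternatives were 4 other scalings, the value table, normexp background correction (offset 50), no multiplicative detrending and 3 treatments of spots. Another scaling and another treatment of spots were added after seeing the data. The 75th percentile and quantile scalings and the fold limit were tested on simulated data in which few probes changed, as many up as down. Changes in as large a share of probes as in these data were not simulated. Python 3.11.15, numpy 2.4.6, pandas 2.3.3, matplotlib 3.10.9, R 4.3.3 and limma 3.58.1 were used.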

Additional observations from a re-analysis of the deposited data

How the results depend on the processing

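Of 108 recomputed differences (9 values under 12 alternatives), 12 are values of B2m minus Tfrc under 4 scalings by a constant, which cannot move them. Of the other 96, 62 stayed within the spot SD of the reported value and 34 moved further. None moved further under normexp, without multiplicative detrending, or with the spots averaged, paired or flagged in another way. The order below is tumor against wild-type spleen, tumor-bearing spleen against wild-type spleen, then tumor against tumor-bearing spleen. B2m moved to 0.37, 0.47 and -0.10 under quantile normalization and to 0.37, 0.47 and -0.10 in the authors' value table. Tfrc moved to -0.16 and 0.21 in the first and second comparison, in both of these settings. B2m minus Tfrc moved in the second and last comparison, to 0.26 and 0.27 in both.

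With the median of probes well above background on all 3 arrays as the scale, B2m moved to -0.083 and 0.22 and Tfrc to -0.66 and -0.30 against wild-type spleen. With no scaling, B2m moved to -0.35 and -0.074 and Tfrc to -0.93 and -0.59. With the median level of the other 13 reference genes, B2m moved to 1.44, 1.93 and -0.49 and Tfrc to 0.87, 1.41 and -0.55. That median was the level of a different gene on each array (Nono, Hsp90ab1 and Rpl13a), so it does not follow the same transcript. The median of those genes' differences, chosen after seeing the data, gave 0.43, 1.11 and -0.61 for B2m and -0.14, 0.60 and -0.66 for Tfrc. Differences of 2-fold or more arose only under these 2 scalings, 4 in all, each against wild-type spleen.

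The counts of probes past the limit, 16431, 20861 and 12383, were 24921, 28955 and 22530 at 1.5-fold and 6836, 8628 and 2644 at 4-fold. With no filter on dim probes the last was 19083. No paired analysis was possible because each group has 1 array. For the same reason no array could be left out. The signals of both genes were far above background, and the number of arrays limits the precision.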
